A study of Mus musculus with 7 samples.

Results

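The immediate early and stress response genes are the subject of this report, namely 41 genes chosen by name from the 23361 genes quantified in macrophages of the injured mouse sciatic nerve. They were chosen with earlier results of these data known. Shares of the 41 set beside those of all genes therefore describe this list and are no independent test of it. All 41 were found by their symbol, all had values in each of the 7 libraries, and all passed the expression filter. They comprised 10 subunits of AP-1, 12 other transcription factors, 4 MAP kinase phosphatases, 4 regulators of mRNA decay or proliferation, 3 IER genes and Rhob, 4 genes of growth arrest and of the stress phosphatase, and 3 heat-induced chaperones. The cells were sorted as lineage-negative and positive for F4/80, CD14, CD11b and CD16/32, from the tissue that bridges the nerve stumps within a conduit after transection and repair of the sciatic nerve. The mice were BALB/cJ, which are inbred and wild-type, with no engineered allele. Day 5 was represented by 3 libraries, and days 14 and 28 by 2 libraries each, labelled as independent biological replicates. All mice had the same injury and repair, and no uninjured nerve or untreated macrophage was among these libraries. The age of these mice and the number of mice per library were not given in the sources used here, so p-values measure the spread between libraries. Tissue was digested with collagenase and hyaluronidase in a warm bath, erythrocytes were lysed, and cells were labelled and sorted before RNA was extracted. All 3 time points were handled in this way according to the methods.

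Immediate early genes are transcribed within minutes of a signal, without the need for newly made protein. Growth factors, cytokines, bacterial products, calcium and mechanical or thermal stress reach them through MAP kinases, which phosphorylate SRF partners, CREB and ATF proteins already bound at their promoters. Their products are mostly short-lived transcription factors (AP-1, EGR, KLF and NR4A proteins), together with feedback inhibitors such as the dual specificity phosphatases, which switch the kinases off, and tristetraprolin (Zfp36), which removes the mRNA of cytokines. In macrophages they accompany activation, differentiation and phagocytosis, and in cells taken from solid tissue they are known to be induced by enzymatic digestion as well.

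Reference promoter sequences are shown for 6 members because they carry the motifs through which the family is known to be switched on, or because they show how alike the genes for Hsp70 are. RefSeq promoters on GRCm38.p6 (250 bases before to 50 bases after the start) matched 35 of the 41 members, all but Egr1, Egr3, Fosl1, Ier2, Klf10 and Myc. Capitals mark TGACG in Fos (chr12:85473640-85473939, plus strand, from positions -129 and -66 relative to the start), TGACNTCA in Jun (chr4:95052173-95052472, minus strand, position -45) and in Ppp1r15a (chr7:45526219-45526518, minus strand, positions -105 and -12), and the CArG box in Egr2 (chr10:67537316-67537615, plus strand, position -72). TGACG is the short form of the element bound by CREB and ATF proteins, and TGACNTCA is its long form where N is G. Of the TGACNTCA sites marked, only that of Ppp1r15a at position -12 has G there. The CArG box is the element of SRF. In Hspa1a (chr17:34972107-34972406, minus strand) and Hspa1b (chr17:34959189-34959488, minus strand) capitals mark the bases that differ between both genes.
Fos: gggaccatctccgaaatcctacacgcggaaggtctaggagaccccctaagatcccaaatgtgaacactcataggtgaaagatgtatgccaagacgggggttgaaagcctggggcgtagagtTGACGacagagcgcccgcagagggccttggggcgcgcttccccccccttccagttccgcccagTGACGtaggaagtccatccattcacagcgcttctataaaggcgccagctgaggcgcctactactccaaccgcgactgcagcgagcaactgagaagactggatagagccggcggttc
Jun: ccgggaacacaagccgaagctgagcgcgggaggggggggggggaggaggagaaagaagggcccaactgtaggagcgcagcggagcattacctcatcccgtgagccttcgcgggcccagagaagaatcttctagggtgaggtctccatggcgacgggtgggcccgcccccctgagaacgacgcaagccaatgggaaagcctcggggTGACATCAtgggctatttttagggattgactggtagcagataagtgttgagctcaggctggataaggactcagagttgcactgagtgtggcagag
Ppp1r15a: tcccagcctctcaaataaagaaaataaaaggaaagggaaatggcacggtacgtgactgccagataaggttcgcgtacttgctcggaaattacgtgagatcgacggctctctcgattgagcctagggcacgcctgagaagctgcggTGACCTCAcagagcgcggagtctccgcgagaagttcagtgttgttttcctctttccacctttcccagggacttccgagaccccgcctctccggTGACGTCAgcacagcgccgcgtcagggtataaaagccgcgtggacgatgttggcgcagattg
Egr2: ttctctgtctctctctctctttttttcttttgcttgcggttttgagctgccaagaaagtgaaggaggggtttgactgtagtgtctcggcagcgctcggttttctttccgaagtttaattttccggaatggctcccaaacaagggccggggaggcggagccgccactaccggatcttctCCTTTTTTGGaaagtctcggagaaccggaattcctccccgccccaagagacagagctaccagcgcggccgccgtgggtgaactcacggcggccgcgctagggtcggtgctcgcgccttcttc
Hspa1a: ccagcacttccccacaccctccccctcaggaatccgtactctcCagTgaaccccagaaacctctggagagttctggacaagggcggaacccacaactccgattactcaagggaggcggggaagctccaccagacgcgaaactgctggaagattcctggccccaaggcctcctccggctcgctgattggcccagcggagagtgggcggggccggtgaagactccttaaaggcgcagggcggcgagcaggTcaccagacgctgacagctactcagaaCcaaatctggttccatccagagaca
Hspa1b: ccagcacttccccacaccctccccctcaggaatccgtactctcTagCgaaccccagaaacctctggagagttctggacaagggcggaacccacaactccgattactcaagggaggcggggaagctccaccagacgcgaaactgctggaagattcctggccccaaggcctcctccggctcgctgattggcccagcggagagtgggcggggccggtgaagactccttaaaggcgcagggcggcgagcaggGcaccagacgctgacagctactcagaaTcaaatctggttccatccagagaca

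Motifs were searched on both strands of these windows. TGACG was found in 20 of the 35 members with a promoter (57.1%), against 23.0% of all 27025 genes with a promoter, and TGACNTCA, which contains TGACG where N is G, in 6 (17.1% against 10%), namely Btg2, Dusp1, Jun, Klf6, Maff and Ppp1r15a. The CArG box was present in Dusp5, Egr2 and Zfp36 (8.57% against 1.81%). TGANTCA, the site of AP-1 itself, was found in Csrnp1 and Zfp36l1 (5.71% against 8.97%), and TTCNNGAA, a core form of the heat shock element, in Egr2 (2.86% against 9.6%). No other form of the heat shock element was searched. Its absence from a promoter, those of Hspa1a and Hspa1b included, therefore does not show that the element is lacking there. These matches are a description of the letters and do not show binding in these cells. Promoters of the Hspa1 genes were equal at 296 of 300 positions.

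The libraries held 18027190 to 35247116 fragments assigned to genes, and the 41 genes took 1.59%, 1.45% and 1.62% of them in day 5 replicates 1 to 3, 2.02% and 2.18% in the day 14 libraries, and 1.48% and 1.85% in the day 28 libraries. Macrophage genes were high throughout: Lyz2 lay between 10680 and 18380 FPKM (fragments scaled by transcript length and library size), Csf1r between 406.5 and 493.5 FPKM, and the sort markers Cd14 between 1431 and 3003 FPKM and Emr1 (F4/80) between 195 and 470.0 FPKM. Both of these sort markers fell. Itgam, Fcgr3 and Fcgr2b, genes of the other sort markers, had no edgeR adjusted p under 0.05 against day 5. At days 14 and 28 their log2 fold changes were -0.59 and -0.45 for Itgam, 0.16 and 0.12 for Fcgr3, and 0.1 and -0.3 for Fcgr2b. Cd14 was lower at day 14 than at day 5 (log2 fold change -0.75, SE 0.16, edgeR adjusted p = 0.0357) and at day 28 (-0.76, SE 0.16, adjusted p = 0.0145). Emr1 was lower at day 28 than at day 5 (-1.01, SE 0.17, adjusted p = 0.0065). The part of these shifts in the values of the 41 genes was not tested. In bulk RNA, fewer cells of a type and less RNA per cell cannot be told apart. Levels of the 41 genes spanned 1.82 FPKM (Fosl1, day 28 replicate 1) to 1464 FPKM (Junb, day 14 replicate 2). At day 5 the highest means were those of Ier3, Junb and Zfp36 (1246, 1167 and 1110 FPKM), and the lowest those of Egr3, Fosl1 and Myc (6.63, 6.76 and 8.58 FPKM).

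Between days 5 and 14, Fos, Jun, Egr1, Klf2, Myc, Dusp6, Ier2, Gadd45g and Ppp1r15a rose and Fosl1 fell. These were 9 of 41 genes higher (22%) and 1 lower (2.44%) at an adjusted p under 0.05 in edgeR's quasi-likelihood test, while 2.84% of the 12858 genes tested were called higher and 1.94% lower. The median log2 fold change was 0.36 over the 41 genes and 0.03 over all genes, and 29 of the 41 were above 0. Because the 41 genes were chosen with earlier results of these data known, these shares only describe the list. By rank alone, both day 14 libraries were above all day 5 libraries in 19 of the 41 genes (46.3%, against 21.9% of all genes) and below them in 5 (12.2% against 21.4%), which were Dusp5, Fosl1, Fosl2, Ier3 and Maff. The number called higher was 4, 2 and 2 without day 5 replicates 1, 2 and 3, 12 without day 14 replicate 1 and 4 without day 14 replicate 2. These fits called 0.376%, 0.595%, 0.251%, 5.62% and 1.62% of all genes higher. Jun and Dusp6 were called in each of these fits, and the other 8 calls were lost in at least 1 of them.

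**Figure D1:**
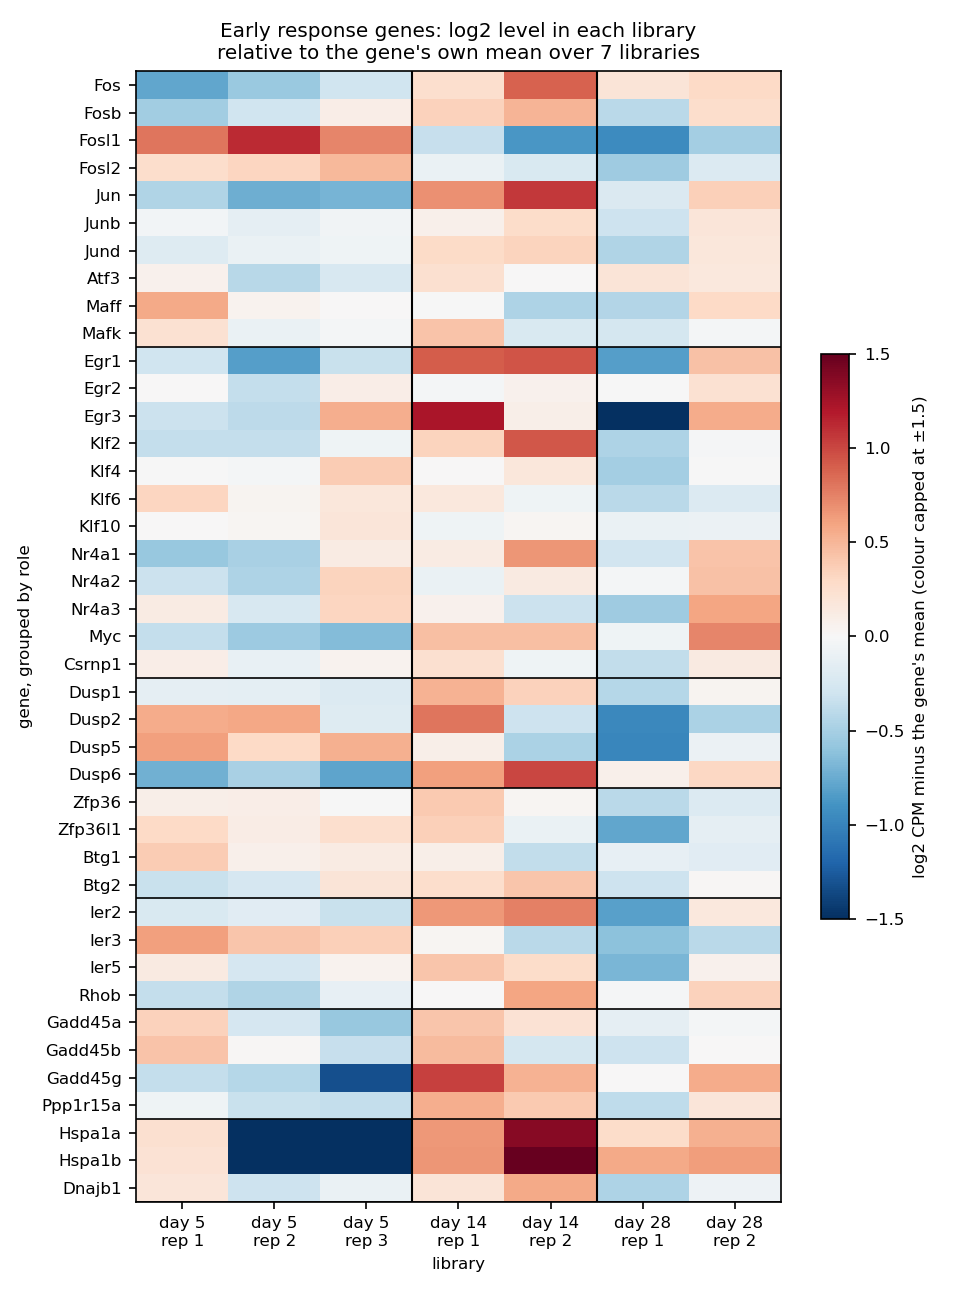
Log2 CPM (counts scaled to library size) of each of the 41 genes in each library minus the gene's mean over the 7 libraries, with genes in rows by role and libraries in columns by day. Red is above and blue below the gene's own mean, and the number of genes above it was 35 and 28 for the pair of day 14 libraries. At day 28 it was 6 for replicate 1 but 26 for replicate 2.

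AP-1 is a dimer of FOS and JUN family proteins, and here its induced subunits moved in different directions. Fos (chr12:85473890-85477273, plus strand of GRCm38, also called mm10) was at 262, 306 and 367 FPKM in the day 5 libraries, 535 and 819 FPKM at day 14, and 507 and 549 FPKM at day 28. Both later days were above day 5 in every library, whereas days 14 and 28 overlapped. Its log2 fold change against day 5 was 1.13 at day 14 (SE 0.20, edgeR adjusted p = 0.0209) and 0.77 at day 28 (SE 0.20, adjusted p = 0.0301). Fosl1 (chr19:5447547-5455946, plus strand), which encodes FRA-1, lacks the transactivation domain of FOS. It was at 6.33, 7.91 and 6.04 FPKM at day 5, 2.83 and 1.92 FPKM at day 14 and 1.82 and 2.49 FPKM at day 28, on 65 to 245 fragments per library. Fosl1 fell by 1.5 on the log2 scale from day 5 to day 14 (SE 0.27, adjusted p = 0.0212) and by 1.65 to day 28 (SE 0.27, adjusted p = 0.00547), with no overlap between day 5 and either later day. Fosl2 (chr5:32135801-32157842, plus strand), which encodes FRA-2, was at 109, 114 and 128 FPKM, then 85.4 and 77.3 FPKM, then 62.7 and 78.7 FPKM. Its decrease passed the test at day 28 (log2 fold change -0.72, SE 0.14, adjusted p = 0.0112) and not at day 14 (-0.52, SE 0.14, adjusted p = 0.0639). The comparisons against day 5 share the day 5 libraries and are not independent of each other.

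Within the summed FPKM of the 4 FOS family genes, the share of Fos was 56.0%, 57.4% and 57.4% at day 5, 68.0% and 75.8% at day 14, and 76.0% and 70.0% at day 28. The share of Fosl2 lay between 20.1% and 23.4% at day 5 and between 7.15% and 10.9% in the 4 later libraries, and that of Fosl1 between 0.945% and 1.48% at day 5 and between 0.178% and 0.36% later. Fos thus made up a larger part of its family in each later library than in any day 5 library. Fosb, the remaining subunit, was at 89.8, 105 and 138 FPKM at day 5, 163 and 182 FPKM at day 14 and 95.6 and 154 FPKM at day 28 (adjusted p = 0.118 for day 14 vs day 5).

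Jun (chr4:95049034-95052222, minus strand) encodes the classical partner of FOS. It was at 112, 92.4 and 94.5 FPKM at day 5, 247 and 315 FPKM at day 14 and 130 and 194 FPKM at day 28, so that the 3 days did not overlap. Against day 5 its log2 fold change was 1.51 at day 14 (SE 0.19, edgeR adjusted p = 0.00926) and 0.72 at day 28 (SE 0.19, adjusted p = 0.0321), and from day 14 to day 28 it was -0.79 (SE 0.21, adjusted p = 0.172). Junb, among the most abundant of the 41 genes in FPKM, was at 1193, 1120 and 1188 FPKM, then 1290 and 1464 FPKM, then 979 and 1384 FPKM (adjusted p = 0.370 for day 14 vs day 5). Jund was at 180, 192 and 197 FPKM, then 249 and 257 FPKM, then 148 and 230 FPKM (adjusted p = 0.167). Jun made up 6.39% to 7.53% of the summed FPKM of the JUN family at day 5, 13.8% and 15.5% at day 14 and 10.4% and 10.7% at day 28.

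Atf3, a stress-induced repressor and partner of JUN, was at 293, 211 and 237 FPKM at day 5, 331 and 278 FPKM at day 14 and 318 and 311 FPKM at day 28. Its days 5 and 14 overlapped (log2 fold change 0.31, SE 0.15, edgeR adjusted p = 0.255). The small MAF genes Maff and Mafk, which encode dimer partners without a transactivation domain, ranged from 77.5 to 160 FPKM and from 66.1 to 108 FPKM and were called in none of the comparisons. Of the 10 AP-1 subunits, 2 were called higher and 1 lower at day 14 than at day 5, against 2.84% and 1.94% of all genes.

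**Figure D2:**
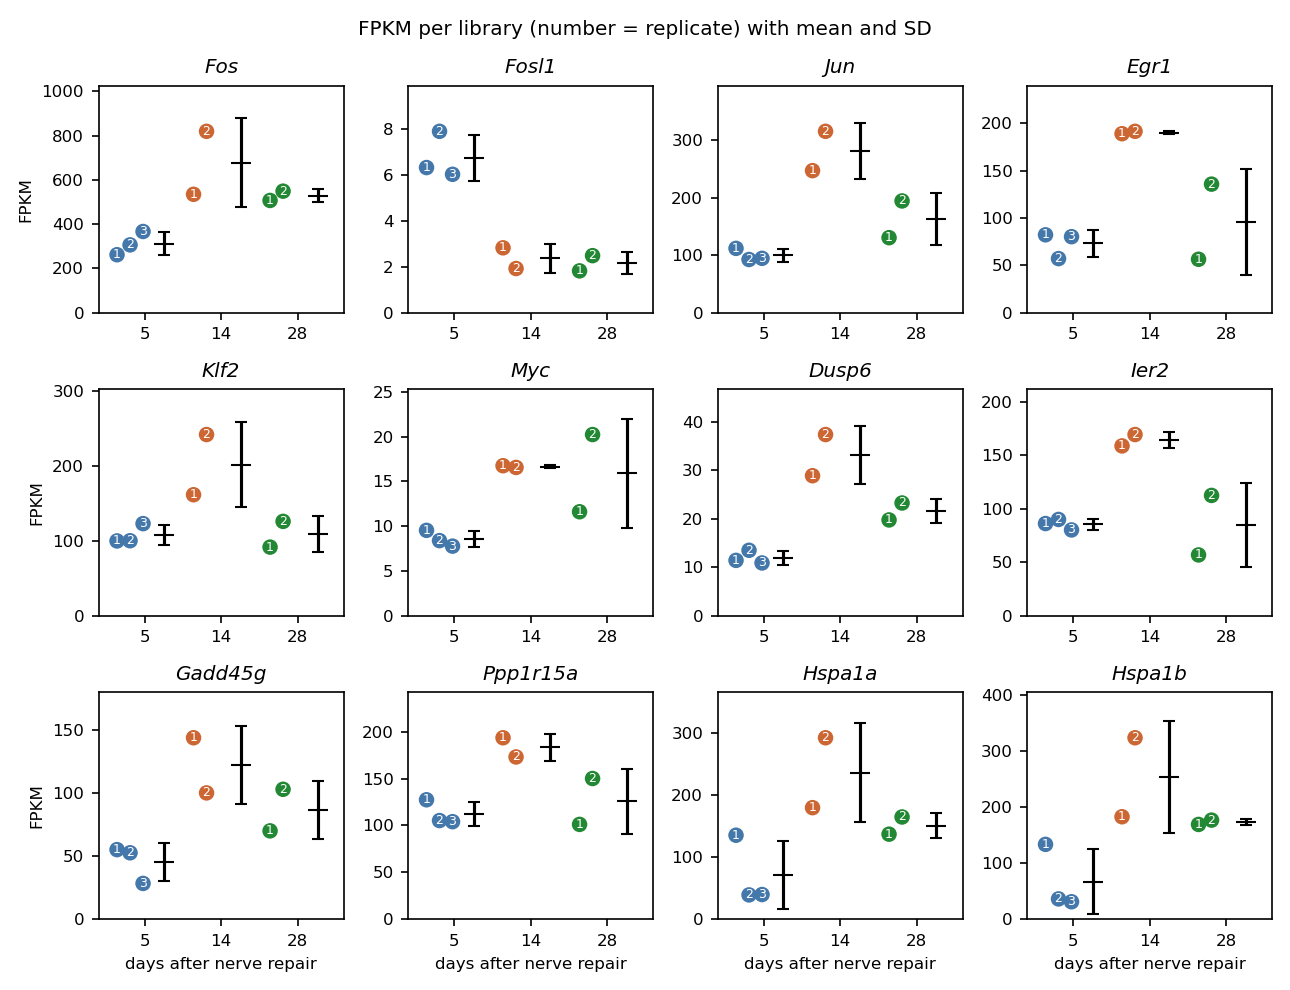
FPKM (y axis, from 0) by day after repair (x axis) for the 10 genes called between days 5 and 14 and for Hspa1a and Hspa1b, with each numbered point a library and the bar its day's mean and SD. Jun, Dusp6, Hspa1a and Hspa1b separated the 3 days without overlap, Egr1 and Ier2 were far apart in the day 28 libraries, and day 5 replicate 1 stood above the other day 5 libraries in Hspa1a and Hspa1b.

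Among the other transcription factors, Egr1, Klf2 and Myc were called higher at day 14 than at day 5, 3 of 12 in all, against 2.84% of all genes. Egr1 (chr18:34859823-34864984, plus strand), a zinc finger factor induced through ERK and SRF, was at 82.2, 57.1 and 80.3 FPKM at day 5, 189 and 192 FPKM at day 14 and 56.4 and 136 FPKM at day 28. Both day 14 libraries were above the other 5 libraries. The log2 fold change was 1.39 at day 14 against day 5 (SE 0.30, edgeR adjusted p = 0.0383) and -0.98 at day 28 against day 14 (SE 0.34, adjusted p = 0.288), where the day 28 libraries differed 2.41-fold from each other. Egr2 ranged from 44.5 to 66.4 FPKM over all libraries, and its days overlapped (adjusted p = 0.748 for day 14 vs day 5). The share of Egr1 in the summed FPKM of the 3 EGR genes was 53.2% to 56.9% at day 5, 72.7% and 74.4% at day 14, and 49.3% and 64.1% at day 28. Egr3 was low and variable, with 1.98 to 15.4 FPKM on 93 to 339 fragments.

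Klf2 (chr8:72319033-72321656, plus strand), a zinc finger factor known to restrain inflammatory activation of macrophages, was at 99.8, 100 and 123 FPKM at day 5, 161 and 242 FPKM at day 14, and 91.6 and 126 FPKM at day 28. It was higher in both day 14 libraries than in the other 5 (log2 fold change against day 5 0.92, SE 0.20, edgeR adjusted p = 0.0374). Klf6 (chr13:5861482-5870394, plus strand), which promotes inflammatory gene expression in macrophages, was at 276, 228 and 249 FPKM, then 246 and 209 FPKM, then 165 and 190 FPKM. Klf6 was lower at day 28 than in any day 5 library (log2 fold change -0.49, SE 0.14, adjusted p = 0.0449). Klf4 and Klf10 lay between 60.0 and 113 FPKM and between 36.9 and 45.2 FPKM, and neither was called in any comparison.

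Myc (chr15:61985391-61990374, plus strand), a factor of growth and proliferation, was at 9.55, 8.40 and 7.79 FPKM at day 5, 16.8 and 16.6 FPKM at day 14 and 11.6 and 20.2 FPKM at day 28. All later libraries were above all day 5 libraries, with log2 fold changes of 0.97 at day 14 (SE 0.21, edgeR adjusted p = 0.0369) and 0.90 at day 28 (SE 0.21, adjusted p = 0.0215). The orphan nuclear receptors Nr4a1, Nr4a2 and Nr4a3 ranged from 119 to 277 FPKM, from 17.7 to 32.8 FPKM and from 34.4 to 75.6 FPKM, and Csrnp1, a nuclear protein induced through AXIN1, from 107 to 165 FPKM. None of these 4 genes was called in any comparison, and the lowest adjusted p for day 14 vs day 5 among them was that of Nr4a1 (0.156, log2 fold change 0.69, SE 0.27).

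The MAP kinase phosphatases split by gene. Dusp6 (chr10:99263231-99267489, plus strand), which inactivates ERK in the cytoplasm, was at 11.4, 13.5 and 10.9 FPKM at day 5, 28.9 and 37.3 FPKM at day 14 and 19.8 and 23.2 FPKM at day 28. The 3 days did not overlap, and the log2 fold change against day 5 was 1.48 at day 14 (SE 0.15, edgeR adjusted p = 0.00554) and 0.86 at day 28 (SE 0.15, adjusted p = 0.00722). Dusp5 (chr19:53529109-53542431, plus strand), which inactivates ERK in the nucleus, was at 226, 183 and 215 FPKM, then 158 and 106 FPKM, then 74.5 and 139 FPKM. Every later library was below every day 5 library for Dusp5, and the decrease passed the test at day 28 (log2 fold change -0.96, SE 0.26, adjusted p = 0.0369) but not at day 14 (-0.65, SE 0.26, adjusted p = 0.161). Dusp1, which acts on p38 and JNK, was at 443, 438 and 422 FPKM, then 697 and 612 FPKM, then 356 and 495 FPKM, and narrowly missed the threshold for day 14 vs day 5 (log2 fold change 0.60, SE 0.15, adjusted p = 0.0525). Dusp2 ranged from 42.0 to 145 FPKM, both its highest value and one of 66.7 FPKM being from day 14.

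Regulators of mRNA decay and proliferation were not called. Zfp36 was at 1131, 1139 and 1059 FPKM at day 5, 1390 and 1071 FPKM at day 14, and 792 and 918 FPKM at day 28, and its relative Zfp36l1 ranged from 66.0 to 147 FPKM. The antiproliferative genes Btg1 and Btg2 ranged from 188 to 320 FPKM and from 43.4 to 72.3 FPKM. Among the IER genes and Rhob, Ier2 (chr8:84661331-84662852, minus strand), a nuclear protein of early induction, was at 86.2, 90.0 and 80.2 FPKM at day 5, 159 and 169 FPKM at day 14, and 56.9 and 112 FPKM at day 28. Both day 14 libraries exceeded the other 5 (log2 fold change against day 5 0.95, SE 0.23, edgeR adjusted p = 0.0484). Ier3 (chr17:35821684-35822923, plus strand), a target of NF-kB that modulates cell survival, was at 1381, 1199 and 1159 FPKM, then 921 and 672 FPKM, then 583 and 674 FPKM. Ier3 at day 28 was below day 5 in every library (log2 fold change -0.98, SE 0.16, adjusted p = 0.00625), while day 14 vs day 5 gave -0.64 (SE 0.16, adjusted p = 0.0557). Ier5 and Rhob, a small GTPase of endosomes, ranged from 80.6 to 174 FPKM and from 229 to 465 FPKM and were not called.

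Gadd45g (chr13:51846678-51848468, plus strand), a stress sensor that activates p38 and JNK signalling, was at 55.0, 52.5 and 28.2 FPKM at day 5, 144 and 99.9 FPKM at day 14 and 69.9 and 103 FPKM at day 28. It was higher in each later library than in each day 5 library (log2 fold change 1.43 at day 14, SE 0.28, edgeR adjusted p = 0.0275, and 0.94 at day 28, SE 0.28, adjusted p = 0.0512). Its relatives Gadd45a and Gadd45b ranged from 17.7 to 34.8 FPKM and from 312 to 546 FPKM and were not called. Ppp1r15a (chr7:45522916-45526268, minus strand) encodes GADD34, which directs a phosphatase to eIF2alpha and so restores translation after stress. It was at 127, 105 and 104 FPKM at day 5, 194 and 173 FPKM at day 14 and 101 and 150 FPKM at day 28, with a log2 fold change of 0.72 at day 14 against day 5 (SE 0.17, adjusted p = 0.0492), just under the threshold.

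Hspa1a (chr17:34969190-34972156, minus strand) and Hspa1b (chr17:34956436-34959238, minus strand) encode the heat-inducible Hsp70. Their transcripts share 75-base stretches over 52.7% and 55.8% of their length, besides the near-identical promoters shown above. The split of reads between them is therefore uncertain. They enter every count of the 41 genes as 2 genes, though their values are not independent of each other. Hspa1a was at 135, 38.9 and 39.5 FPKM at day 5, 180 and 292 FPKM at day 14, and 137 and 164 FPKM at day 28. Hspa1b was at 133, 35.9 and 30.9 FPKM, then 182 and 323 FPKM, then 169 and 176 FPKM. Day 5 replicate 1 stood apart from the other day 5 libraries by more than 2-fold in these 2 genes and in no other of the 41, and both day 14 libraries were above the other 5. The log2 fold change for day 14 vs day 5 was 1.74 for Hspa1a (SE 0.48, edgeR adjusted p = 0.0708) and 1.93 for Hspa1b (SE 0.54, adjusted p = 0.0719). Without day 5 replicate 1 it was 2.6 and 2.93 (adjusted p = 0.0183 for each), and without day 14 replicate 1 it was 2.05 and 2.29 (adjusted p = 0.0201 and 0.0189). Dnajb1, the Hsp40 partner of Hsp70, was at 39.1, 27.7 and 32.0 FPKM, then 39.3 and 50.7 FPKM, then 24.7 and 32.5 FPKM (adjusted p = 0.165).

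From day 14 to day 28, none of the 41 genes was called in either direction by edgeR (0.0311% of all genes each way), although 14 were lower and 0 higher at an unadjusted p under 0.05 (6.94% and 5.27% of all genes). DESeq2 called 7 lower and 0 higher (1.89% and 0.801% of all genes). Log2 fold changes were below 0 for 36 of the 41 genes, with a median of -0.36 against 0.01 over all genes. Both day 14 libraries were above both day 28 libraries in 21 genes (51.2%, against 19.7% of all genes) and below them in 0 (against 19.3%). Leaving out day 14 replicate 1, day 14 replicate 2 or day 28 replicate 2 gave 1, 2 and 1 genes called lower, against 0.12%, 3.29% and 0.24% of all genes. The lowest adjusted p were those of Klf2, Jun, Dusp6 and Ier2, from 0.155 to 0.178.

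Between days 5 and 28, Fos, Jun, Myc and Dusp6 were called higher and Dusp5, Fosl1, Fosl2, Ier3 and Klf6 lower. These 4 and 5 genes were 9.76% and 12.2% of the 41, with 7.74% and 7.51% of all genes called by edgeR in the same directions, and the median log2 fold change was 0.00 against 0.03 over all genes. Both day 28 libraries were above all day 5 libraries in 9 genes (22% against 26.0%) and below them in 10 (24.4% against 25.6%), shares near those of all genes. Without day 5 replicates 1, 2 and 3 in turn, 3, 1 and 2 genes were called higher (3.39%, 3.83% and 3.72% of all genes) and 3 lower each time (3.03%, 3.34% and 3.85%), and the effect of the day 28 libraries is given with their spread.

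**Figure D3:**
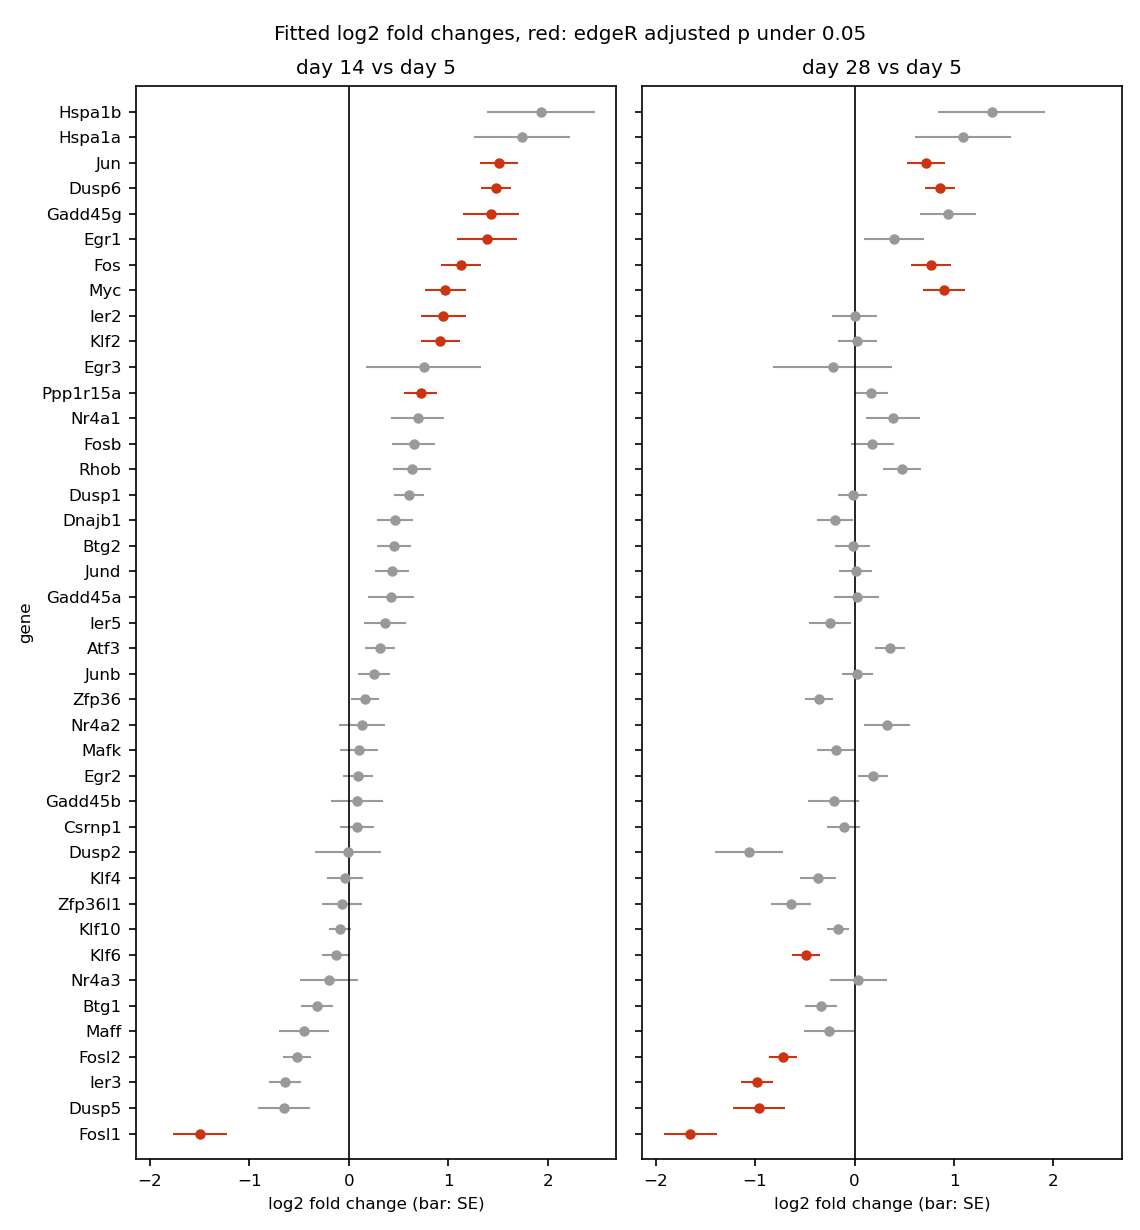
Fitted log2 fold change (x axis, bar SE) of each of the 41 genes (y axis, ordered by day 14 vs day 5), for day 14 vs day 5 on the left and day 28 vs day 5 on the right, with genes of an edgeR adjusted p under 0.05 in red. The 10 red genes on the left comprise 9 above 0 and Fosl1 below it, and the 9 on the right 4 above and 5 below.

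Against the mean of days 5 and 28, edgeR called 0 of the 41 genes at day 14 in either direction (0.00778% of all genes each way). At an unadjusted p under 0.05, 18 were higher and 1 lower (7.32% and 5.29% of all genes). DESeq2 called 9 higher and 0 lower (0.988% and 0.568% of all genes). The median log2 difference was 0.41 against 0.02 over all genes, with 32 of 41 above 0. Dusp6 (1.05, SE 0.13, adjusted p = 0.0646) and Jun (1.15, SE 0.17, adjusted p = 0.0859) were closest to the threshold. Without day 14 replicate 1, day 14 replicate 2 or day 28 replicate 2, 4, 2 and 3 genes were called higher, against 0.653%, 1.43% and 0.127% of all genes. Both day 14 libraries were above the other 5 in 14 of the 41 genes (34.1%, against 6.63% of all genes), namely Btg2, Dnajb1, Dusp1, Dusp6, Egr1, Fosb, Hspa1a, Hspa1b, Ier2, Ier5, Jun, Jund, Klf2 and Ppp1r15a, and below them in 0 (against 5.58%).

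Libraries of the same day were not alike in these genes, day 28 least of all. Day 28 replicate 2 was above replicate 1 in 39 of the 41 genes, all but Atf3 and Btg1, with a median log2 difference of 0.47, while it was above replicate 1 in 49.3% of all genes. Egr1, Egr3 and Nr4a3 differed by more than 2-fold between them (2.41-fold, 4.88-fold and 2.2-fold). Day 28 replicate 1 was also the deepest library (35247116 against 18101976 fragments) with the lowest share of the ribosomal RNA gene Rn45s (0.863% against 2.32% in replicate 2, and 1.85% to 3.12% in the other 5 libraries). The part of depth and of ribosomal RNA in this gap was not tested. Without day 28 replicate 1 the median from day 14 to day 28 was -0.20, and without replicate 2 it was -0.61. The median from day 5 to day 28 was 0.24 without replicate 1 and -0.32 without replicate 2, so its sign rested on which day 28 library was kept, with 3 genes higher and 0 lower in the first case (2.07% and 1.32% of all genes) and 0 higher and 6 lower in the second (3.65% and 3.93%).

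The day 14 libraries differed less as a whole, with 19 genes higher and 22 lower in replicate 2 than in replicate 1 and more than 2-fold gaps in Dusp2 and Egr3. Fos, Jun, Klf2, Rhob, Nr4a1, Hspa1a and Hspa1b were 1.28-fold to 1.77-fold higher in replicate 2, whereas Gadd45b, Mafk, Fosl1 and Dusp5 were higher in replicate 1. Median deviations from the gene's own mean were 0.01, -0.25 and -0.03 in the day 5 libraries, 0.28 and 0.22 at day 14, and -0.38 and 0.15 at day 28, so that 1 of the day 28 libraries came near the day 14 libraries and the other was the lowest of all. Without day 28 replicate 1, day 14 stood 0.31 above the mean of days 5 and 28 in the median, and without replicate 2 it stood 0.49 above it.

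**Figure D4:**
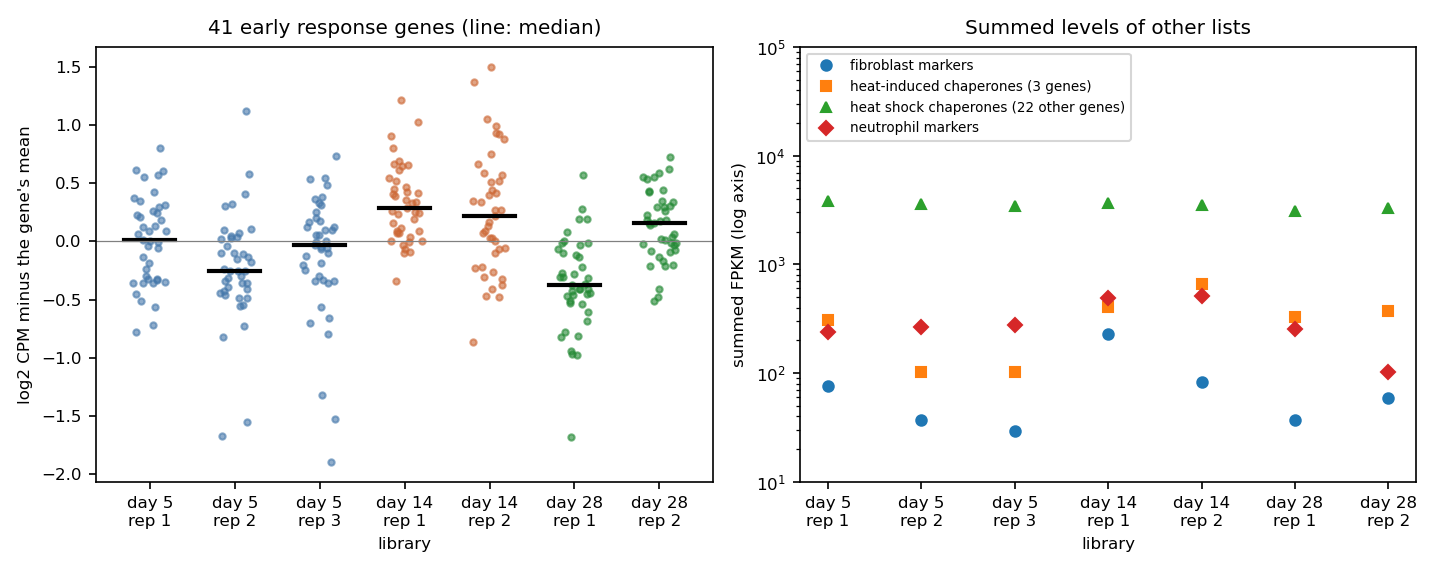
Left, log2 CPM minus the gene's mean for the 41 genes in each library (points) with the median (line). Right, summed FPKM on a log axis of the 9 fibroblast markers, 6 neutrophil markers, 3 heat-induced chaperones and 22 other heat shock genes in each library. These 22, labelled heat shock chaperones, are not all chaperones. Fibroblast markers peaked in day 14 replicate 1 and the heat-induced chaperones in day 14 replicate 2.

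Every library here was digested and sorted, and the sources used here give no handling time per library, so a response to handling and a response in the nerve cannot be told apart in these values. Heat shock genes and early response genes outside the 41 were therefore read out beside them. Among 22 other heat shock genes, not all of them chaperones, 0 were called at day 14 against day 5 in either direction by edgeR. Their median log2 fold change was 0.08 (3 higher and 0 lower at an unadjusted p under 0.05, 2 higher and 0 lower by DESeq2). In that comparison 12.8% of all genes were higher and 11.2% lower at an unadjusted p under 0.05, and 5.71% and 5.12% by DESeq2. The lowest p in that list were those of Dnaja4, Bag3, Hspb1 and Hsph1, with adjusted p of 0.0864 to 0.243. Of these, Dnaja4 was under 1 FPKM in all libraries. Hspb1 was at 13.9, 4.5 and 6.76 FPKM at day 5, 16.7 and 22.7 FPKM at day 14, and 8.22 and 15.6 FPKM at day 28 (log2 fold change 1.23 at day 14, SE 0.43). Hsph1 was at 28.3, 10.5 and 14.2 FPKM, then 24.4 and 32.8 FPKM, then 37.4 and 35.9 FPKM (0.70, SE 0.34). Bag3 was at 40.4, 31.5 and 31.1 FPKM, then 43.7 and 49.3 FPKM, then 32.8 and 40.3 FPKM (0.45, SE 0.15). In these 3 genes day 5 replicate 1 was the highest of its day, as in Hspa1a and Hspa1b. The 22 genes included Hspa8 and Hmox1 (1417 to 1732 and 549.5 to 1263 FPKM, both named after their values were seen), which made up much of their sum. The summed FPKM was 3440 to 3860 at day 5, 3650 and 3510 at day 14 and 3110 and 3300 at day 28. That of the 3 heat-induced chaperones was 307, 103 and 102 FPKM at day 5, 401 and 666 FPKM at day 14 and 330 and 373 FPKM at day 28. Of 50 other early response genes, 4 were called higher and 4 lower at day 14 than at day 5 (8% each way, against 2.84% and 1.94% of all genes), with a median log2 fold change of -0.14 against 0.03 over all genes. Rgs2, a brake on G protein signalling, rose from between 16.6 and 21.5 FPKM at day 5 to 47.8 and 69.6 FPKM at day 14 (log2 fold change 1.68, SE 0.17, adjusted p = 0.00554), and the kinase genes Sik1 (0.83, SE 0.15, adjusted p = 0.0209) and Sgk1 (1.28, SE 0.23, adjusted p = 0.0231) rose as well. Il1b, an inflammatory cytokine of the same early class, fell from between 1104 and 1225 FPKM at day 5 to 735 and 618 FPKM at day 14 (-0.79, SE 0.13, adjusted p = 0.0184). The early response genes outside the 41 thus went in both directions at day 14. Against the mean of days 5 and 28, edgeR called 0 of these 50 genes, with 8 higher and 6 lower at an unadjusted p under 0.05 and 1 higher and 3 lower by DESeq2. Of all genes, 7.32% were higher and 5.29% lower at that unadjusted p, and 0.988% and 0.568% by DESeq2.

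Upstream of the family, 26 kinases and factors that carry the signal held 0 genes called higher and 3 lower (11.5%) at day 14 than at day 5 (2 higher and 8 lower at an unadjusted p under 0.05, 1 and 5 by DESeq2). The shares of all genes in that comparison, also for the lists below, were 2.84% called higher and 1.94% lower. At an unadjusted p under 0.05 they were 12.8% and 11.2%, and by DESeq2 5.71% and 5.12%. Braf, a kinase that starts the ERK cascade, went from between 8.87 and 9.84 FPKM at day 5 to 5.96 and 4.53 FPKM (log2 fold change -0.84, SE 0.14, edgeR adjusted p = 0.0197), Crem, a CREB relative, from between 37.4 and 51.7 FPKM to 24.8 and 15.3 FPKM (-1.14, SE 0.21, adjusted p = 0.0234), and Elk3, an SRF partner, from between 36.2 and 37.6 FPKM to 27.6 and 26.8 FPKM (-0.44, SE 0.11, adjusted p = 0.0492). At day 28 against day 5, 1 was called higher and 5 lower (3.85% and 19.2%, against 7.74% and 7.51% of all genes). Of 42 relatives of the 41 genes that were tested, 0 were called by edgeR at day 14 against day 5, with 6 higher and 14 lower at an unadjusted p under 0.05 and 2 and 8 by DESeq2, and the lowest adjusted p was that of Dusp3 (0.0643). At day 28 against day 5, 3 relatives were called higher and 6 lower (7.14% and 14.3%, against 7.74% and 7.51% of all genes). Among the 8 housekeeping genes 0 were called by edgeR at day 14 against day 5 (1 lower at an unadjusted p under 0.05 and by DESeq2), with log2 fold changes from -0.37 to 0.16. At day 28 against day 5, 0 were called higher and 1 lower (12.5%, against 7.51% of all genes). This was Actb (log2 fold change -0.63, SE 0.18, edgeR adjusted p = 0.045).

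Markers of other cells moved at day 14 too. The summed FPKM of 9 fibroblast markers was 76.2, 36.9 and 29.5 at day 5, 228 and 83.4 at day 14, and 37.1 and 58.3 at day 28. Col1a2, a collagen gene, was called higher at day 14 than at day 5 (log2 fold change 1.86, SE 0.39, edgeR adjusted p = 0.0350), 8 of the 9 had a fold change above 0, and Pdgfra was under 1 FPKM in all libraries. The fibroblast sum was higher in day 14 replicate 1 than in replicate 2. Of the 41 genes, 22 had the same order between both libraries, among them Gadd45g and Ppp1r15a (0.696-fold and 0.894-fold in replicate 2). The other 19 had the opposite order, among them Fos and Jun (1.53-fold and 1.28-fold). The 6 neutrophil markers summed to 239, 266 and 275 FPKM at day 5, 495 and 515 FPKM at day 14, and 252 and 103 FPKM at day 28, nearly all of it S100a8 and S100a9. Mpo, Elane and Camp were under 1 FPKM in all libraries, but Ngp, a further gene of that list, was not. Of 7 Schwann cell markers 6 were under 1 FPKM throughout, and the other, Mbp, stood between 10.3 and 11.4 FPKM at day 5, then at 12.2 and 19.8 FPKM, and by day 28 at 19.6 and 17.2 FPKM (log2 fold change 0.75 from day 5 to day 28, SE 0.19, adjusted p = 0.0296). Of 5 T cell markers, Cd3e, Cd3d, Cd3g and Lck were under 1 FPKM throughout. Cd2 was at 3.66, 4.89 and 3.73 FPKM, then 3.57 and 12.2 FPKM, then 13.6 and 10.3 FPKM (log2 fold change 1.56 from day 5 to day 28, SE 0.42, adjusted p = 0.0360). The 6 endothelial markers summed to 27.1, 14.6 and 20.7 FPKM, then 14.0 and 7.53 FPKM, then 7.18 and 3.75 FPKM. From day 5 to day 28, Kdr (log2 fold change -3.02, SE 0.42, adjusted p = 0.0029) and Pecam1 (-1.80, SE 0.37, adjusted p = 0.0145) fell. Tek, under 1 FPKM in all libraries, rose (4.63, SE 1.06, adjusted p = 0.0208). The B cell list summed to 9.3, 7.02 and 6.51 FPKM, then 10.8 and 6.21 FPKM, then 5.08 and 4.42 FPKM. Sums of the eosinophil and mast cell lists stayed at or under 2.3 FPKM, the dendritic cell list summed to 8.18 to 30.4 FPKM and the erythroid list to 2.22 to 46.3 FPKM, neither with both day 14 libraries above the rest. The part of fibroblast or neutrophil RNA in the day 14 values of the 41 genes was not tested.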

How the data were processed

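RNASeq was carried out by the authors on polyA+ RNA of sorted macrophages, with single-end reads. Reads were trimmed with cutadapt 1.8, mapped to UCSC mm10 with TopHat2 2.0.13 without new junctions, and quantified with Cuffdiff 2.2.1, per the labels and methods. The authors deposited, for each gene and library, expected counts (fragments before scaling), a scaled signal (the fragments brought to a common library size) and FPKM values. Strand use and the sharing of multiply mapped reads were not given in the sources used here.

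Rounded expected counts were compared by edgeR 4.0.16 (R 4.3.3): TMM scaling, low genes filtered with the time points as groups, a quasi-likelihood test over 7 libraries with time as the only term, and Benjamini-Hochberg adjustment over 12858 genes, called under 0.05. SE values, computed from F, are approximate. Levels are FPKM. Alternatives were DESeq2 1.42.0, RLE and Cuffdiff scaling, no filter, limma 3.58.1 on log2(FPKM + 1), a fit on only the days compared, a replicate block and leaving out each library. The test was tried on simulated fragments.

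The 41 genes, the lists and the rule for naming genes were chosen with earlier results of these data known. Full values were given for members called in any comparison and for Fos, Jun, Egr1, Atf3, Hspa1a and Hspa1b, and other members by range or with selected values. Of each list, at most 4 genes of lowest p in each of 2 comparisons were named. Coordinates are GENCODE M21 genes on GRCm38, and promoters RefSeq on GRCm38.p6. Adgre1 (listed as Emr1), Mycl, Ly6g and Hbb-bs were not analysed here under these symbols. Depth is the fragments assigned to genes per library.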

Additional observations from a re-analysis of the deposited data

How the results depend on the processing

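The 10 calls between days 5 and 14 and the 9 between days 5 and 28 kept their direction in all 266 pairs of result and alternative, and the call was lost in 83. Between days 5 and 14, 15 of the 41 genes were higher and 4 lower without an expression filter (4.63% and 3.63% of all genes), 3 were higher with limma on log2(FPKM + 1) (1.2%), and 3 were lower with DESeq2 (5.12%). Leaving out day 5 replicate 1, 2 or 3 gave 0 lower, against 0.117%, 0.235% and 0.157% of all genes. The counts called higher with a library left out are given above with their shares. From day 14 to day 28, 7 were lower with DESeq2 (1.89%), 8 without a filter (1.53%), and 0 without any one day 5 library (0% of all genes). Between days 5 and 28, 7 were higher without a filter (7.22%), 8 were lower in the fit on those days alone (11.3%), and leaving out 1 library gave 0 to 6 higher and 0 to 8 lower (0 higher without day 28 replicate 2, 0 lower without day 28 replicate 1). Against the mean of days 5 and 28, 9 were higher with DESeq2 (0.988%), 12 without a filter (0.971%), and 0 without any one day 5 library (0% of all genes). The causes of these shifts were not tested. Where a library left out leaves 1 in its day, that library is assumed to vary like the others.

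The deviations of same-numbered libraries correlated at -0.054 to 0.175 over 7613 genes, so the numbers were not taken to pair them. With the replicate number as a block, 1 gene (Dusp6) was higher and 0 lower between days 5 and 14 (0.0233% of all genes each way), and 2 were higher and 2 lower between days 5 and 28 (2.76% and 2.96%).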
